A study of Mus musculus with 8 samples.

Results

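Aquaporins are membrane channels that let water follow an osmotic gradient, and some of them also pass glycerol or other small solutes. In the lacrimal gland (LG), the exocrine gland that makes the watery part of tears, acinar and duct cells pump salt into the lumen and water follows through these channels. The family was read here in 8 RNA libraries of whole exorbital LGs, 4 from mice fed ad libitum (AL) and 4 from mice on calorie restriction (CR). The question was whether CR alters the set of water channels that the LG transcribes. Of 24552 genes listed in the table of counts, 8 aquaporin genes were taken by their symbols, namely Aqp1, Aqp3, Aqp4, Aqp5, Aqp7, Aqp8, Aqp9 and Aqp11. All 8 had at least 1 count. Only Aqp1, Aqp5 and Aqp8 passed edgeR's filter on low counts and entered the test across 11211 genes, and the other 5 did not.

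All mice were female C57BL/6J with no engineered allele. AL mice ate freely, and CR mice received 40% less food, reached gradually, for 4 months, from 6 to 7 until 10 to 11 months of age. The study used a pair of mouse cohorts, and which of them gave these libraries is not given in the sources used here. In 1 of the cohorts the CR chow also held 40% more vitamins and micronutrients than the AL chow. Feeding of CR mice each day shortly before dark is described after that cohort. Nothing in the labels pairs the mice, and p-values measure the spread between these libraries. Values per library are always listed in the order of replicates 1 to 4. The libraries hold RNA of the whole gland, so fewer cells of a type and less RNA per cell cannot be told apart. Reads were taken near the 3' ends of transcripts, where a transcript gives about the same number of reads whatever its length, and levels are given as CPM, counts scaled to a common library size, without division by length. Totals ranged from 12051881 to 22156511 counts per library, and 3 counts, the floor used here, correspond to between 0.152 and 0.231 CPM. The floor and the intervals of shares cover counting error only, since no use of molecular identifiers is stated. The tissue label was checked with transcripts of LG acini. Obp1a and Mucl2, which encode secreted tear proteins, were at 158000 ± 6770 and 137000 ± 25400 CPM in AL and at 92200 ± 42500 and 81500 ± 40500 CPM in CR (mean ± SD, n = 4 each). The libraries also held transcripts that are abundant in the parotid gland, and more of them in CR. Their summed level was 28500, 14700, 11700 and 318 CPM across AL, against 249000, 293000, 210000 and 23200 CPM across CR. The sum of the LG acinar markers was 349000, 326000, 290000 and 351000 CPM across AL, against 245000, 204000, 182000 and 355000 CPM across CR, so parotid transcripts outweighed it in CR replicates 1 to 3. All 8 such transcripts were higher in CR by sign, and all 8 had an unadjusted p under 0.05 in edgeR, against 16.7% of all genes tested. edgeR called 4 of them, Prb1, Prp2, Prh1 and Gm4736, and DESeq2 called 8, against 1.2% and 3.43% of all genes called higher. Bpifa2, Amy1 and Smr3a, the most counted, had adjusted p-values from 0.0734 to 0.117 in edgeR. The mean log2 CPM of these 8 transcripts, called the parotid score here, was 8.01, 5.11, 6.23 and 1.35 across AL, against 12.37, 13.56, 10.82 and 9.67 across CR. The scores of the diets did not overlap, so diet and score cannot be told apart, and a fit that holds both is given as values only. That fit called 4 of 11211 genes, against 222 without the score. It called 0 of the 12 genes that were called without the score in the lists read below. A call that ended in it therefore says little about a gene.

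To show the genes behind the values, DNA around or before the RefSeq starts of the 3 tested members is given from RefSeq on GRCm38.p6, the build that mm10 names. RefSeq promoter entries were read for 7 of the 8 members. Aqp4 was not covered, which says nothing about whether RefSeq lists a promoter for it. The search covered 250 bases before each RefSeq start, on both strands. The E-box that clock transcription factors bind, with the letters CACGTG, was found in 6.02% of 32851 promoters of that length. A TATA box, with the letters TATAAA, was found in 12.4%. A GC box, with the letters GGGCGG, was found in 32.7%, and a CCAAT box in 33.8%. Aqp5 and Aqp8 both hold CACGTG, 87 and 75 bases before the RefSeq start, and Aqp1 does not hold these letters in this window. For Aqp5 that distance depends on the annotation. Its GENCODE gene starts further upstream, at 99590782, so the printed stretch lies inside the gene as GENCODE draws it, in the first exon and 5' UTR of some of its transcripts. The stretch around each E-box, in capitals, is shown with the same number of bases on either side, at chr15:99590929-99590958 and chr7:123462207-123462236, both on the plus strand.
Aqp5: tgccgcgtgggtCACGTGgcccgggcgggt
Aqp8: aatcattgatccCACGTGgcccttgccctg
The wider upstream regions of Aqp8 (chr7:123462044-123462290, plus strand) and Aqp1 (chr6:55336049-55336298, plus strand) follow, with every match to the 4 motifs in capitals, which in Aqp1 is a GC box.
Aqp8: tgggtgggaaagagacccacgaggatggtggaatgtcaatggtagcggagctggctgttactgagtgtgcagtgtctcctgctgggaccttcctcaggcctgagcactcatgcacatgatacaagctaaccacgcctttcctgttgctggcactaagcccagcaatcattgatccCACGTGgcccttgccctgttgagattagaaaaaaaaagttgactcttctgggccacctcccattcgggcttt
Aqp1: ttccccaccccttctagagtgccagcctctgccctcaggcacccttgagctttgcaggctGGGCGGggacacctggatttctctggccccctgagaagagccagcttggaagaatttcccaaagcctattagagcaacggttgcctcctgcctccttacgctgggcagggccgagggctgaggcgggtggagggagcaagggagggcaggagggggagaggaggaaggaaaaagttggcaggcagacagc
A match is a description of letters and no evidence of binding.

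A single water channel supplied most aquaporin reads in the LG. Aqp5, which in lacrimal and salivary acini sits in the apical membrane, made up 70.7 ± 3.81% of the aquaporin reads in AL and 77.6 ± 7.00% in CR (mean ± SD, n = 4 each). Aqp8 made up 24.6 ± 4.08% in AL and 16.9 ± 7.38% in CR, and Aqp1 3.72 ± 1.53% and 5.11 ± 1.36%. The 8 genes together held 23089 reads, 0.0179% of all reads counted. Their summed level was 171 ± 10.3 CPM in AL and 193 ± 33.9 CPM in CR, with ranges of 159 to 183 and 156 to 226 CPM that overlap. By mean CPM, Aqp5 ranked at position 271, Aqp8 at 1295 and Aqp1 at 4845 among the genes tested.

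**Figure D1:**
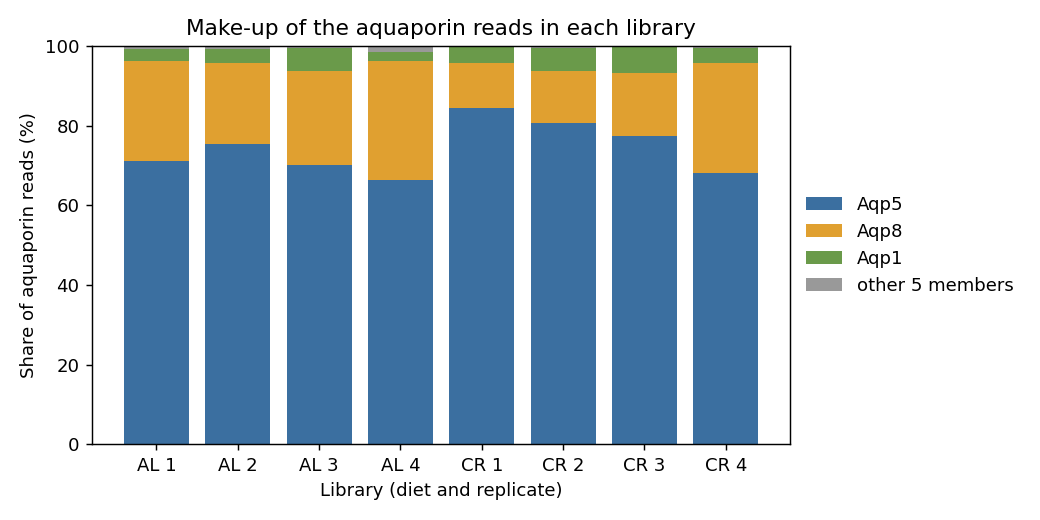
Share of the reads on the 8 aquaporin genes, in percent, taken by Aqp5, Aqp8, Aqp1 and the remaining members in each library. Aqp5 has the tallest segment in every library, from 66.3% in AL replicate 4 to 84.3% in CR replicate 1, and the Aqp8 segment of CR replicate 4 (27.7%) lies among those of AL.

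Among the 8 members, the order of the levels was Aqp5, Aqp8 and Aqp1 in both diets, and within each diet the libraries of these 3 genes did not overlap. In AL the mean level of Aqp5 was 2.89-fold that of Aqp8, and the level of Aqp8 6.48-fold that of Aqp1. In CR these ratios were 4.71 and 3.24. The next member in AL was Aqp4, below Aqp1 by 8.60-fold, and in CR it was Aqp9, below Aqp1 by 38.8-fold. From there on, each neighbour in the order had overlapping libraries, through Aqp9, Aqp11, Aqp3 and Aqp7 in AL and through Aqp11, Aqp7, Aqp3 and Aqp4 in CR. Aqp2, an aquaporin outside these 8, was at 1.06 CPM in CR, above Aqp9 at 0.254 CPM.

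No tested aquaporin differed between the diets past the thresholds that the study set for a DEG, namely 0.05 for the adjusted p and 1.5 for the fold in either direction. The edgeR quasi-likelihood test called 0 of 3, with 0 at an unadjusted p under 0.05. Over all genes tested it called 1.98% (1.2% higher and 0.785% lower in CR), and 16.7% had an unadjusted p under 0.05. DESeq2 also called 0 of 3, with 0 at an unadjusted p under 0.05, against 6.26% called over all genes tested (3.43% higher and 2.83% lower in CR) and 17.7% at an unadjusted p under 0.05. The unadjusted count was not stable. With CR replicate 4 left out it was 3 of 3 in edgeR (unadjusted p = 0.0434 for Aqp1, 0.0479 for Aqp5 and 0.00802 for Aqp8), where 20% of all genes had an unadjusted p under 0.05. With a replicate block it was 2 of 3 in edgeR (0.00735 for Aqp1 and 0.0178 for Aqp8), where 21.6% of all genes did. In either fit 0 of 3 passed after adjustment. By sign, Aqp5 and Aqp1 were higher in CR and Aqp8 was lower. The intervals of the fitted differences leave room for changes of the size that the study's threshold asks for.

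Aqp5 (Gene ID 11830, chromosome 15 from 99590782 to 99594829 of GRCm38, plus strand, 4 exons in its longest GENCODE vM21 transcript) was counted at 119, 131, 129 and 105 CPM across AL, against 190, 126, 168 and 117 CPM across CR. CR replicates 1 and 3 lay above every AL library and CR replicates 2 and 4 lay within the AL range. The means were 121 ± 11.8 CPM in AL and 150 ± 34.8 CPM in CR, and the spread relative to the mean was 9.77% in AL and 23.1% in CR. The log2 fold change was 0.31 (standard error 0.20, 95% interval -0.11 to 0.74, Benjamini-Hochberg adjusted p = 0.470 by edgeR). On the linear scale the interval ran from 0.925 to 1.67. The estimate was 0.19 when CR replicate 1 was left out. When the parotid score entered the fit, it was 0.08 (95% interval -0.74 to 0.90).

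Aqp8 (Gene ID 11833, chromosome 7 from 123462291 to 123468004, plus strand, 6 exons) encodes a channel for water that also passes ammonia and hydrogen peroxide and is known from the exocrine pancreas, the liver and the colon. Its level was 42.0, 35.0, 43.1 and 47.5 CPM across AL, against 26, 20.1, 34.1 and 47.5 CPM across CR. CR replicates 1, 2 and 3 lay below every AL library, and CR replicate 4 lay level with the highest AL library. The means were 41.9 ± 5.19 CPM in AL and 31.9 ± 11.9 CPM in CR. The log2 fold change was -0.39 (standard error 0.24, 95% interval -0.92 to 0.13, adjusted p = 0.464 by edgeR). Single libraries set the size of this difference. With CR replicate 4 left out it was -0.65 (95% interval -1.10 to -0.20, adjusted p = 0.0883 in the same edgeR test), and without CR replicate 2 it was -0.22. CR replicate 4 also had the lowest parotid score among CR libraries. When the parotid score entered the fit, the sign turned, with a log2 fold change of 0.22 (95% interval -0.61 to 1.04). In AL, where the score ran from 1.35 to 8.01, Aqp8 stayed between 35.0 and 47.5 CPM. In CR, where the score ran from 9.67 to 13.56, Aqp8 was lower at each higher score, from 47.5 to 20.1 CPM. The parotid sum was 318 to 28500 CPM in AL and 23200 to 293000 CPM in CR, so the diets cover unlike amounts of it. Since the score separates the diets, the fit with the score does not tell the parts of diet and score in the Aqp8 values apart.

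Aqp1 (Gene ID 11826, chromosome 6 from 55336432 to 55348555, plus strand, 4 exons) encodes the water channel of capillary endothelium and red blood cells. Its level was 5.39, 6.20, 10.7 and 3.55 CPM across AL, against 9.20, 9.18, 14.4 and 6.61 CPM across CR. Replicate 3 was the highest and replicate 4 the lowest in both diets, and AL replicate 3 lay above 3 of the CR libraries. The means were 6.46 ± 3.04 CPM in AL and 9.85 ± 3.28 CPM in CR. The log2 fold change was 0.61 (standard error 0.34, 95% interval -0.13 to 1.35, adjusted p = 0.409 by edgeR). It ranged from 0.38 without CR replicate 3 to 0.96 without AL replicate 3. When the parotid score entered the fit, the sign turned, with a log2 fold change of -0.10 (95% interval -1.49 to 1.28).

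**Figure D2:**
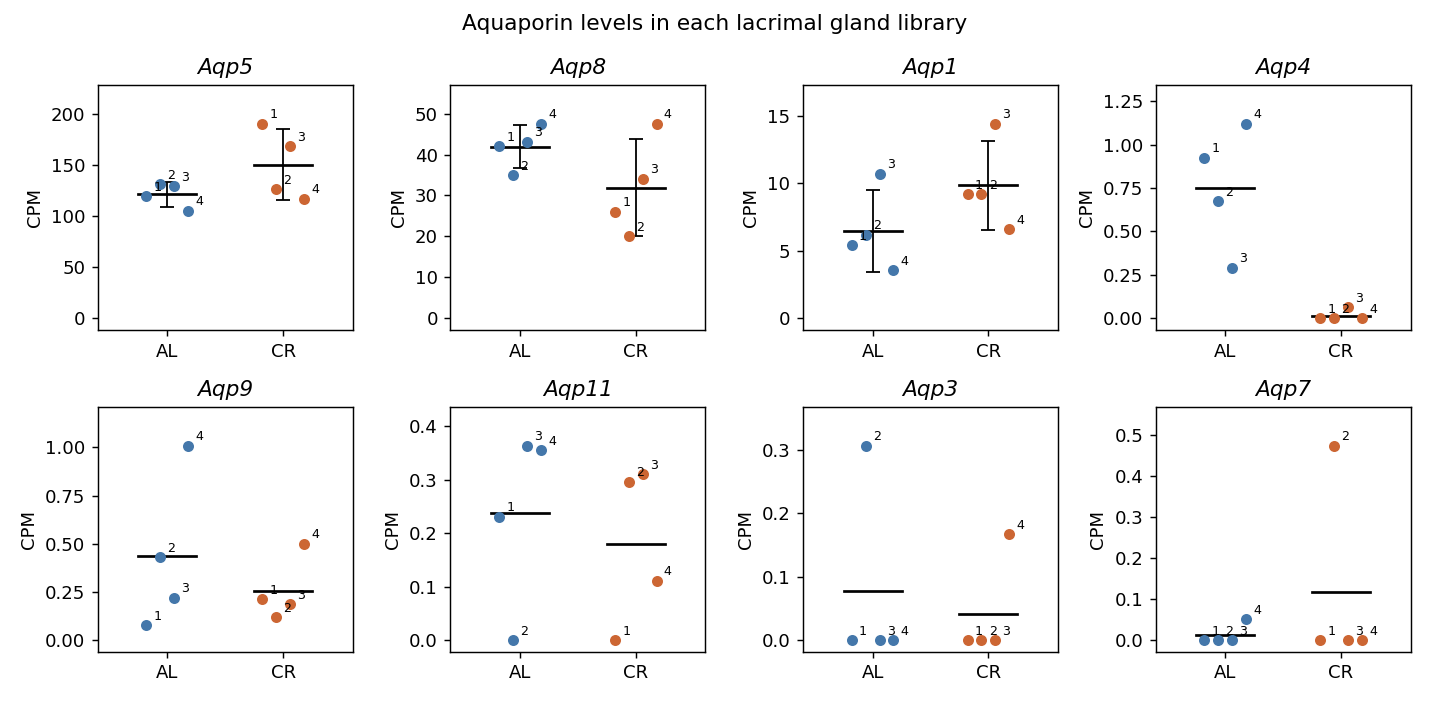
Level in CPM of each aquaporin in each library, by diet, with the replicate number beside each point. Horizontal lines are means over 4 libraries, vertical bars are SDs and are drawn for Aqp5, Aqp8 and Aqp1 only, and the vertical scale differs between genes. Aqp4 is the only member whose diets do not overlap, with AL between 0.292 and 1.12 CPM and CR at or below 0.0619 CPM.

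Markers of the cell types known to carry Aqp1 were read in the same libraries. The summed level of 10 endothelial markers, among them Pecam1, Cdh5 and Kdr, was 28.9, 31.7, 29.7 and 19.1 CPM across AL, against 30.8, 28.0, 35.5 and 28.0 CPM across CR. As for Aqp1, the sum was lowest in AL replicate 4 and highest in CR replicate 3, and CR replicate 4 was among the lowest, level with CR replicate 2. In AL the sum was highest in replicate 2 and Aqp1 in replicate 3. Of 9 endothelial markers tested, edgeR and DESeq2 each called 0 (median log2 fold change 0.10, against 0.01 over all genes tested). In edgeR 1 of them had an unadjusted p under 0.05, against 16.7% of all genes tested. Egfl7, Kdr and Flt1, the most counted of them, had log2 fold changes of 0.10, 0.26 and 0.07. Of 7 red blood cell markers, 5 were listed at 0 in every library, the globins Hbb-bs, Hbb-bt, Hba-a1 and Hba-a2 among them. Alas2, the erythroid enzyme of heme synthesis, was at 4.16 ± 3.41 CPM in AL and 4.31 ± 2.72 CPM in CR. The zeros are therefore not read as absence of red blood cells, and why the globins were at 0 was not tested. The part of these cells in the Aqp1 values was not tested.

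The ratio of Aqp5 to Aqp1 within a library does not depend on how libraries are scaled. Aqp5 was counted 21.9, 21.1, 12.0 and 29.4 times as often as Aqp1 across AL, against 20.6, 13.7, 11.6 and 17.6 times as often across CR. The mean log2 ratio was 4.33 ± 0.54 in AL and 3.96 ± 0.37 in CR, a difference of -0.37 (exact permutation test, two-sided p = 0.257, n = 4 each). The smallest p that 4 libraries against 4 allow is 0.0286. The CR values lay within the range of AL except for CR replicate 3, just under it. Aqp5 was counted 2.83, 3.76, 2.98 and 2.21 times as often as Aqp8 across AL, against 7.32, 6.27, 4.94 and 2.45 times as often across CR. For this pair CR replicates 1 to 3 lay above all AL libraries and CR replicate 4 lay between AL replicates 4 and 1.

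**Figure D3:**
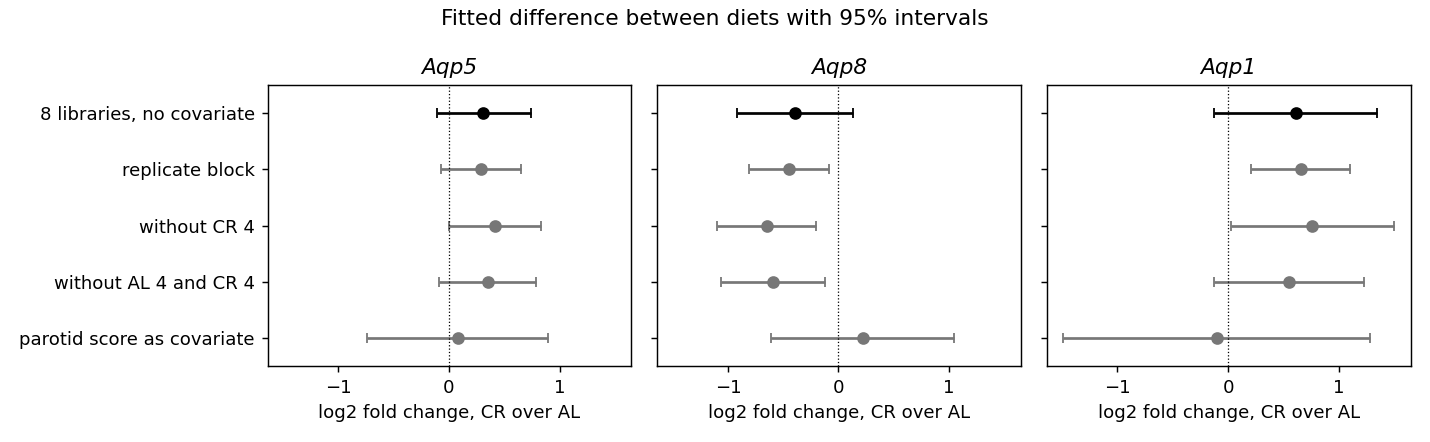
Fitted log2 fold change of CR over AL for Aqp5, Aqp8 and Aqp1 with 95% intervals, from all 8 libraries and from 4 alternatives. The estimates of Aqp8 run from -0.65 without CR replicate 4 to 0.22 once the parotid score is in the fit, and the intervals of that fit are the widest for each gene.

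**Figure D4:**
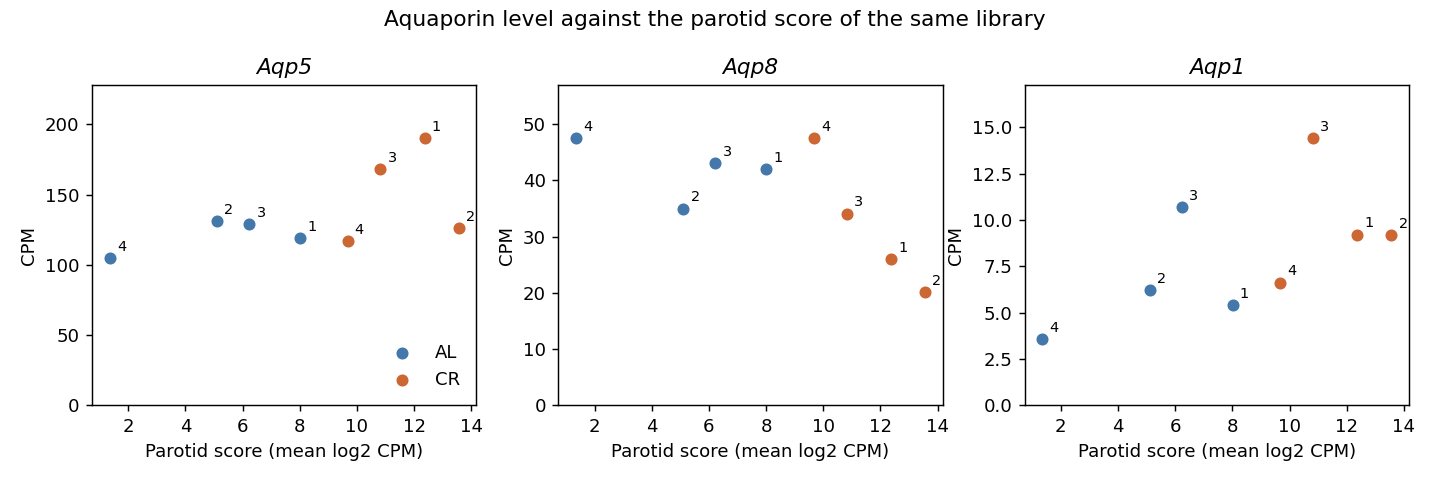
Level in CPM of Aqp5, Aqp8 and Aqp1 in each library against the parotid score of that library (mean log2 CPM of 8 transcripts), with points coloured by diet and numbered by replicate. The CR libraries have the 4 highest scores, and the lowest level of Aqp8, 20.1 CPM, belongs to CR replicate 2 with the highest score, 13.56.

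Aqp4 was the member with the widest gap between the diets, on few reads. It encodes the water channel of astrocyte end feet, of fast skeletal muscle fibres and of the basolateral side of several epithelia. Aqp4 (Gene ID 11829, chromosome 18 from 15389496 to 15410982, minus strand) had 12, 11, 4 and 22 counts across AL, against 0, 0, 1 and 0 counts across CR. Every AL library was over the floor of 3 counts and every CR library was under it. The levels were 0.752 ± 0.356 CPM in AL and 0.0155 ± 0.0310 CPM in CR. The 49 reads in AL against 1 in CR gave a level 50.9-fold higher in AL, with a 95% counting interval from 8.72 to 2050 that leaves out the spread between mice. The exact permutation test gave a two-sided p of 0.0286 (n = 4 each), the smallest it can give, and 0.853 after Benjamini-Hochberg adjustment over the 5524 genes with reads that did not pass the filter. The 185 genes at this smallest p share that adjusted value, the lowest of the set, so the adjustment could not single out Aqp4. Of these 5524 genes, 3.35% had an exact p under 0.05, and 1.99% had CR below AL without overlap, or 4.88% of the 964 with at least as many reads as Aqp4. Aqp4 overlaps an annotated antisense gene, and whether reads were counted by strand is not given in the sources used here.

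Whether Aqp4 counted as changed depended on the filter. Fitted without a filter on low counts, it was called lower in CR by edgeR (log2 fold change -5.03, adjusted p = 0.0401 by the quasi-likelihood test over 16735 genes), where 2.61% of genes were called and 0.986% were called lower. DESeq2 on the same genes gave -5.33 (adjusted p = 0.00488) and called 4.36% of them. These fitted values rest on 1 read in CR and are no bound on the fold. When each library was left out in turn, edgeR without a filter called Aqp4 in 1 of 8 fits, that without AL replicate 3, with adjusted p-values from 0.0408 to 0.129 and log2 fold changes from -6.60 to -4.71.

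Markers of skeletal muscle, of myoepithelial cells and of nerve, read beside Aqp4, did not all go the same way. The summed level of 8 skeletal muscle markers was 13.6, 1.59, 4.88 and 9.74 CPM across AL, against 3.04, 65.1, 7.99 and 48.1 CPM across CR, so it was highest in CR replicates 2 and 4, where Aqp4 had 0 counts. All 6 muscle markers tested were higher in CR by sign (median log2 fold change 1.99). edgeR called 0 of these 6, with 2 at an unadjusted p under 0.05, and DESeq2 called 1 higher, against 16.7% and 3.43% of all genes tested. Acta1, Myh4 and Tnnc2 were the most counted of the list, of which Myh4 did not pass the filter, at mean levels of 0.971 to 2.22 CPM in AL and 3.82 to 10.8 CPM in CR. All 7 tested myoepithelial markers were lower in CR by sign (median log2 fold change -0.68). The log2 fold changes of Mylk, Acta2 and Myh11, contractile genes and the most counted, were -0.95, -0.64 and -0.68, with summed levels over the list of 141 to 232 CPM in AL and 74.6 to 139 CPM in CR. edgeR called 0 of these 7, with 5 at an unadjusted p under 0.05, and DESeq2 called 1 lower, against 16.7% and 2.83% of all genes tested. Of 6 nerve and Schwann cell markers tested, 4 were higher and 2 lower in CR by sign (median log2 fold change 0.63). DESeq2 called 2 higher and edgeR 1, against 3.43% and 1.2% of all genes tested. The gene called by edgeR was Sox10, at 15.3 ± 2.53 CPM in AL and 67.2 ± 28.6 CPM in CR (log2 fold change 2.13, adjusted p = 0.00746 by edgeR). With the parotid score in the fit its log2 fold change was 1.42 and the call ended. Sox10 is also a transcription factor of lacrimal and salivary acini. The next most counted, the myelin genes Mbp and Pmp22, were those lower by sign, with log2 fold changes of -0.17 and -0.28. The part of these cells in the Aqp4 values was not tested.

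The glycerol channels were at or under the floor in most libraries. Aqp7 (Gene ID 11832) and Aqp3 (Gene ID 11828) lie on chromosome 4, from 41033074 to 41048139 and from 41092722 to 41098183 on the minus strand, 44582 bases apart. Aqp9 (Gene ID 64008) lies on chromosome 9 from 71110659 to 71168682 on the minus strand. Aqp9, which passes glycerol and urea in hepatocytes and leukocytes, had 1, 7, 3 and 20 counts across AL, against 3, 2, 3 and 9 counts across CR. It overlaps 2 annotated genes on the opposite strand. Replicate 4 was the highest in both diets, and the diets overlapped (0.435 ± 0.413 CPM in AL and 0.254 ± 0.169 CPM in CR). The two-sided p of the exact permutation test was 0.600 (n = 4 each). Without AL replicate 4 the difference in mean CPM turned from -0.181 to 0.0124. Markers of neutrophils and macrophages were lower in CR by sign in 6 of 6 tested, against 48.9% of all genes tested. edgeR called 1 of them lower and DESeq2 2, against 0.785% and 2.83% of all genes tested. In edgeR 4 had an unadjusted p under 0.05, against 16.7%. The gene called by edgeR was Lyz2, which encodes a lysozyme of myeloid cells (18 ± 6.34 CPM in AL, 6.45 ± 2.04 CPM in CR, log2 fold change -1.48, adjusted p = 0.0312 by edgeR). With the parotid score in the fit its log2 fold change was -0.34 and the call ended. Csf1r and Cd68, also of macrophages, had log2 fold changes of -0.43 and -1.08 and were not called. The summed level of the list was highest in AL replicate 3, at 125 CPM, where Aqp9 had 3 counts. The part of these cells in the Aqp9 values was not tested.

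Aqp7, the glycerol channel of adipocytes, was seen in 2 libraries, with 1 count in AL replicate 4 and 8 counts in CR replicate 2. Adipocyte markers were read beside it. The summed level of 10 adipocyte markers was 26.2, 18.8, 15.7 and 19.0 CPM across AL, against 65.9, 70.9, 116 and 30.3 CPM across CR, and 7 of 7 tested were higher by sign. edgeR called 1 of them higher and DESeq2 called 3 higher, against 1.2% and 3.43% of all genes tested. In edgeR 5 had an unadjusted p under 0.05, against 16.7% of all genes tested. The gene called by edgeR was Fabp4, the fatty acid binding protein of fat cells (4.12 ± 2.37 CPM in AL, 21.6 ± 10.6 CPM in CR, log2 fold change 2.37, adjusted p = 0.0208 by edgeR). With the parotid score in the fit its log2 fold change was 3.48 and the call ended. Cfd and Adipoq, secreted by fat cells, had log2 fold changes of 1.84 and 2.09 and were not called (adjusted p = 0.11 and 0.0635 by edgeR). CR replicate 3, with the highest adipocyte sum, had 0 counts of Aqp7. The part of fat cells in the Aqp7 values was not tested. Aqp3, the glycerol channel of the basolateral membrane of many epithelia, had 5 counts in AL replicate 2, 3 counts in CR replicate 4 and 0 in the other 6 libraries. For Aqp7 and Aqp3 no difference between the diets was detectable at this depth (exact permutation test, two-sided p = 1 for each, n = 4 each).

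Genes that make or use glycerol were read from a list of 10, of which 8 passed the filter. Of these 8, edgeR called 1 higher and 0 lower, against 1.2% and 0.785% of all genes tested, and the median log2 fold change was 0.13. The called gene was Pnpla2, the lipase that starts the breakdown of stored triglyceride, at 20.1 ± 3.82 CPM in AL and 54.2 ± 19.6 CPM in CR (log2 fold change 1.43, standard error 0.28, adjusted p = 0.0277 by edgeR). With the parotid score in the fit it was 0.90 and the call ended. Mgll, which releases glycerol in the last step of that breakdown, was at 66.7 ± 4.50 and 65.7 ± 19.2 CPM. Gpam, which starts triglyceride synthesis from glycerol phosphate, was at 23.3 ± 5.20 and 32.1 ± 9.67 CPM, and neither of these was called.

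Aqp11 (Gene ID 66333, chromosome 7 from 97724006 to 97738289, minus strand), an unorthodox member of the endoplasmic reticulum whose loss gives cystic kidneys in mice, had 3, 0, 5 and 7 counts across AL, against 0, 5, 5 and 2 counts across CR. A library of each diet was at 0 (exact permutation test, two-sided p = 0.686, n = 4 each). Of the rest of the family, Mip, Aqp6 and Aqp12 were listed at 0 in all libraries. Aqp2, the vasopressin-regulated channel of the kidney collecting duct, had 10, 0, 6 and 4 counts across AL, against 14, 13, 34 and 7 counts across CR (log2 fold change 1.62, 95% interval -0.20 to 3.44, adjusted p = 0.367 by edgeR). Aqp2 lies on the same strand as Aqp5, 6234 bases upstream of it, and Aqp6 lies 6570 bases downstream.

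The salt transport that water follows was set beside the channels with a list of 15 pumps, channels and exchangers. Of 11 tested, edgeR called 2 higher and 0 lower, against 1.2% and 0.785% of all genes tested. In edgeR 6 had an unadjusted p under 0.05, against 16.7% of all genes tested. By sign 8 were higher (median log2 fold change 0.31, against 0.01 over all genes tested, of which 51.1% were higher). The called genes were Atp1b1, a subunit of the sodium pump (79.6 ± 33.6 CPM in AL, 474 ± 290 CPM in CR), and Kcnn4, a calcium-activated potassium channel (48.8 ± 19.1 and 167 ± 56.0 CPM). Slc12a2, the cotransporter that loads acinar cells with chloride, was at 70.6 ± 26.8 and 351 ± 219 CPM. Its log2 fold change was 2.32, and its adjusted p of 0.0505 by edgeR lay just outside the threshold. DESeq2 called 4 of the 11 higher, against 3.43% of all genes tested. In CR replicate 4, the summed level of the list was 486 CPM, within the AL range of 330 to 499 CPM, while CR replicates 1 to 3 had 1770, 1800 and 1330 CPM. Among the CR libraries the parotid score was also lowest in replicate 4. Aqp5, too, was lowest in CR replicate 4 among the CR libraries, at 117 CPM, and next lowest in CR replicate 2, at 126 CPM. When the parotid score entered the fit, the log2 fold changes were 0.24 for Atp1b1 and 0.31 for Kcnn4. Both calls ended, as did those of all 12 called list genes, in a fit that called 4 genes over all.

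Receptors and calcium release genes that drive fluid secretion showed no call in edgeR or DESeq2 among 14 tested, with a median log2 fold change of 0.10. In edgeR 0 of them had an unadjusted p under 0.05, against 16.7% of all genes tested. Chrm3, the muscarinic receptor of acinar cells, was at 39.9 ± 9.18 CPM in AL and 38.2 ± 8.45 CPM in CR. Stim2, a sensor of calcium stores, was at 34.2 ± 2.70 and 39.6 ± 7.98 CPM, and Gna11, a G protein subunit under such receptors, at 28.8 ± 2.92 and 34.8 ± 2.65 CPM without overlap between the diets, as in 9.79% of genes tested. Tight junction genes, which line the other path that water can take, gave 0 calls among 12 tested in edgeR, with 2 at an unadjusted p under 0.05. DESeq2 called 1 higher and 1 lower, against 3.43% and 2.83% of all genes tested. Their most counted members, Cldn10, F11r and Cldn3, had log2 fold changes of 0.07, -0.24 and 0.13. Among 9 markers of luminal and duct epithelium, edgeR called 0, with 4 at an unadjusted p under 0.05, against 16.7% of all genes tested. DESeq2 called 1 of these markers higher and 1 lower. Their summed level was 557 to 753 CPM in AL and 596 to 706 CPM in CR. Sox9 and Krt18 were higher in CR by sign (log2 fold changes 0.37 and 0.66) and Ltf, which encodes lactoferrin, was lower (-1.16). Of 9 acinar markers tested, Aqp5 among them, 2 were called lower, Scgb2b7 (log2 fold change -7.96) and Scgb1b7 (-7.82), which encode secretoglobins, against 0.785% of all genes tested. With the parotid score in the fit their log2 fold changes were -7.44 and -6.82 and neither was called. Car6, a secreted carbonic anhydrase in that list, had a log2 fold change of 1.68 and was not called.

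The genes whose levels went most like each tested aquaporin over the 8 libraries were found by the root mean square difference between centred log2 CPM profiles. For Aqp5, whose own SD was 0.285 on this scale, they were Ndufa2 (0.082), a subunit of respiratory complex I, Stxbp2 (0.084), a partner of the exocytosis machinery, and Urm1 (0.086), a ubiquitin-like protein of transfer RNA modification. For Aqp8, with an SD of 0.442, they were Mcph1 (0.128), Epha5 (0.140), an ephrin receptor, and Pdk3 (0.152), a pyruvate dehydrogenase kinase. For Aqp1, with an SD of 0.632, they were Cdcp1 (0.166), Grina (0.208) and Kantr (0.227). None of these 9 genes was called between the diets, their adjusted p-values in edgeR's quasi-likelihood test lying between 0.224 and 0.719. The nearest profiles are a description chosen from 11210 candidates per member, with no test.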

How the data were processed

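RNA of the LG from 4 mice on each diet was primed with oligo(dT) and sequenced near transcript 3' ends. Raw counts per gene were deposited by the authors, who used cutadapt for trimming, STAR with the mm10 build for alignment and HTSeq for counting. The log2 values deposited by the authors equal log2 of the count divided by DESeq2's RLE size factor, plus 1, on recomputation, and were not used further. Versions, the annotation and the strand setting are not given in the sources used here.

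Of 24557 rows, 5 repeated symbols were dropped. Groups were taken from the diet on the labels. The diets were compared in edgeR 4.0.16 (R 4.3.3), after filterByExpr and with RLE factors, by the quasi-likelihood test, and p-values were adjusted by Benjamini-Hochberg over all genes tested. A standard error is the absolute log2 fold change over the root of the F statistic. The biological coefficient of variation was 34.7%. CPM are counts over RLE-scaled library sizes, and total counts ran from 12051881 to 22156511 per library. For genes that did not pass the filter, mean CPM was compared by a two-sided exact permutation test. The ratio of Aqp5 to Aqp1 used counts plus 0.5. Shares of reads carry exact (Clopper-Pearson) intervals in the tables. The pipeline was tested on simulated data.

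The members and lists were chosen with earlier results of these data known. Named are all members, other aquaporin genes listed, called list genes with the 3 most counted of a list, and the 3 nearest profiles per tested member. A gene that this rule names is not reported here. The alternatives were DESeq2 1.42.0, TMM factors, upper-quartile factors, no filter, a minimum of 10 counts per library, no threshold on the fold, the parotid score in the fit, a replicate block, and each library left out. Added after seeing the data were DESeq2 on every gene with reads, leaving out both replicates 4, and leaving out each library without a filter. Positions come from GENCODE vM21 on GRCm38 and sequences from RefSeq.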

Additional observations from a re-analysis of the deposited data

Results flagged for a closer look

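In 5 of 16 groups of 4 libraries, a single library stood apart from the others by more than Dixon's criterion for 4 values, which chance meets in about 1 group in 20. All 5 are groups in which the other 3 libraries were at 0, so the criterion marks any read at all. Aqp3 was at 0.307 CPM in AL replicate 2 and at 0.167 CPM in CR replicate 4. Aqp4 was at 0.0619 CPM in CR replicate 3, from 1 read. Aqp7 was at 0.0507 CPM in AL replicate 4, from 1 read, and at 0.474 CPM in CR replicate 2, from 8 reads. No group of Aqp1, Aqp5, Aqp8, Aqp9 or Aqp11 met the criterion.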

How the results depend on the processing

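Over the alternatives run, 125 values kept their direction and their side of the threshold, or stayed close to the first value where there was no test, while 20 moved beyond that, 6 turned sign and 4 no longer passed the threshold. Aqp5, Aqp8 and Aqp1 were called under none of 18 alternatives each, with log2 fold changes from 0.08 to 0.42, from -0.65 to 0.22 and from -0.10 to 0.96 and adjusted p-values of at least 0.246, 0.0883 and 0.0781. The sign turned with the parotid score as a covariate for Aqp1 (-0.10) and Aqp8 (0.22). The number of aquaporins called, 0 of 3, became 1 (Aqp4, lower in CR) without a filter and with DESeq2 on every gene with reads, and ranged from 0 to 1 when 1 library was left out, since Aqp4 passed the filter in 3 of those 8 fits and was called in 1. Over all genes, 222 were called, against 702 by DESeq2, 729 by DESeq2 on every gene with reads, 436 without a filter, 700 with the replicate block, 656 without both replicates 4, 4 (all higher in CR) with the parotid score, and from 61 (without AL replicate 2) to 700 (without CR replicate 4) when 1 library was left out. The counts with other libraries left out were 78, 87 and 166 without AL replicates 1, 3 and 4 and 121, 65 and 64 without CR replicates 1, 2 and 3. The replicate block gave log2 fold changes of 0.66 for Aqp1, 0.29 for Aqp5 and -0.45 for Aqp8 (adjusted p = 0.0781, 0.347 and 0.128 in edgeR's quasi-likelihood test). Deviations from the diet means correlated between libraries of the same number by 0.13, 0.07, 0.22 and 0.43 for replicates 1 to 4, and not every library correlated best with its own number, so the numbers were not taken to pair mice. Permuting diets within numbers, the ratio of Aqp5 to Aqp1 had a two-sided exact p of 0.125, the smallest possible. Its difference of -0.37 ranged from -0.62 to -0.19 when 1 library was left out. Of the 5 rarely counted members, 1 had an exact p under 0.05 (0 to 1 when 1 library was left out). The count was 0 whichever CR library was left out, with p = 0.0571 for Aqp4 in that exact test. In those runs, which have fewer regroupings, the difference for Aqp4 was -0.752 to -0.731 CPM, against -0.736 CPM with all libraries. With 1 library left out, the difference in mean CPM ranged from -0.890 to -0.615 for Aqp4, -0.138 to 0.00123 for Aqp11, -0.0767 to 0.0416 for Aqp3, -0.0127 to 0.145 for Aqp7 and -0.300 to 0.0124 for Aqp9. The cause of these shifts was not tested. At this depth 5 of 8 members were too rarely counted for the test across genes.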
